A study of Mus musculus with 9 samples.

Results

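Sympathetic noradrenergic lineage genes were followed in N2a cells (Neuro-2a, a mouse neuroblastoma line) in which Arf1, a small GTPase of the Golgi, was knocked down. The 8 genes, of 21899 in the deposited table, were chosen by name, with earlier results of these data known. They were the transcription factor genes Phox2a, Hand2, Gata2, Gata3 and Isl1, and the catecholamine enzyme genes Th, Ddc and Dbh. Control cells carried a luciferase hairpin (shlucif), knockdown cells carried either of the Arf1 hairpins shArf1-1 and shArf1-2, and each of these 3 groups has 3 RNA-seq libraries. The hairpins were in pLKO.1 plasmids that carry puromycin resistance, from which the study made lentivirus. Both knockdown groups together are called Arf1-deficient. All 9 libraries come from the same cell line, and the control cells carry a hairpin too. Columns of the table whose names hold shArf2 were read as shArf1-2, because no sample is named for another target. The sources do not say that replicates were separate cultures, so p-values measure the spread between these libraries, which may be technical.

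Neuroblastoma arises from the sympathoadrenal branch of the neural crest. In that branch a set of transcription factors, among them Phox2a, Hand2, Gata2, Gata3 and Isl1, act on one another and on the genes of noradrenaline synthesis. Tyrosine hydroxylase (Th) makes L-DOPA from tyrosine, aromatic amino acid decarboxylase (Ddc) makes dopamine from L-DOPA, and dopamine beta-hydroxylase (Dbh) makes noradrenaline from dopamine.

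Of the first and the last enzyme of that pathway, Dbh passed the test below and Th did not, so the bases before their start sites are shown. RefSeq promoter windows on GRCm38.p6, from 250 bases before to 50 bases after a start, were found for 8 of the 8 genes, with 10 windows in all because Gata2 and Ddc have 2 each. The sequences are the 200 bases upstream of the start, with capitals at a full cyclic AMP response element (TGACGTCA) and at the core that homeodomain proteins bind (TAAT, or ATTA on the other strand).
Th, chr7:142899996-142900195, minus strand: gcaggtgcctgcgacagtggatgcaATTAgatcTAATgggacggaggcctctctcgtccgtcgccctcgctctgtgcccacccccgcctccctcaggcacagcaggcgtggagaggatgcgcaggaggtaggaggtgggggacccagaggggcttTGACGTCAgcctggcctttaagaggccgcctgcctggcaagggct
Dbh, chr2:27165307-27165506, plus strand: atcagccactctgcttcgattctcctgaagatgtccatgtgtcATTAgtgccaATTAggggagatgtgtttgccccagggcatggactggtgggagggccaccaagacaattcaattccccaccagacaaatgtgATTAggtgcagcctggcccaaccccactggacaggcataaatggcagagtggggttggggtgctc
The full element stands 45 bases before the Th start and is in the window of 1 of the 8 genes, against 1.79% of 32851 mouse promoter windows of the same length. The homeodomain core is present 3 times in the Dbh window, from 157, 147 and 65 bases before the start, and 2 times in the Th window, from 175 and 167 bases before it. On both strands that core was found for 5 of the 8 genes and in 58.0% of all windows. GATAA was found for 3 of the 8 genes (Phox2a, Hand2 and Isl1) against 25.4% of all windows, and the E-box CANNTG for 7 of the 8 against 72.3%. A gene was counted if any of its windows matched, while the shares are per window. Gata2 had an E-box in only 1 of its 2 windows. A match is a description of the letters and not a sign of binding.

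Each library held between 11182479 and 15594615 counts. The targeted gene Arf1 fell from 316 to 328 FPKM (fragments per kilobase, here a read count scaled by the listed length and the total of its library) in control cells to 127 to 130 with shArf1-1 and 157 to 171 with shArf1-2. Markers of another cell type separated the groups as well. The 18 macrophage and microglia marker genes had a summed level of 204 to 246 FPKM in the 3 shlucif libraries, against 0.693 to 0.867 with shArf1-1 and 0.849 to 1.17 with shArf1-2. Of the 15 that were tested, 14 passed the filter on low counts only through the shlucif libraries. All 15 were lower in Arf1-deficient cells, against 32.9% of all tested genes, a direction that the filter itself fixed for the 14. The other, Lyz2, had 3 to 10 counts in Arf1-deficient libraries, too few to pass there. It too was tested because it was high with shlucif. Ctss and Spi1 had 564 to 649 and 138 to 162 counts with shlucif and 0 counts in every Arf1-deficient library. With each Arf1 hairpin 10 of the 18 markers were at 0 counts in every library, while with shlucif all 18 had a count in at least 1 library. The 3 control libraries therefore held RNA of macrophage marker genes, and every comparison with shlucif below runs alongside that difference. Its part in the results was not tested. In bulk RNA, fewer cells of a type and less RNA per cell cannot be told apart.

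By mean FPKM, which is per length, the order was Phox2a, Hand2, Gata2, Isl1, Gata3, Dbh, Th and Ddc in each of the 3 groups. Every library of a gene lay above every library of the next gene in the same group, except that Th and Ddc overlapped with shArf1-1. In shlucif cells Phox2a lay above 97.7% of all listed genes, Isl1 above 68.8%, Gata3 above 54.2%, Dbh above 49.5% and Ddc above 39.3%. The factor genes thus spanned a wide range, and Gata3 lay next to the enzymes. Slc6a2, the noradrenaline transporter and another marker of the lineage, had at most 2 counts in any library.

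**Figure D1:**
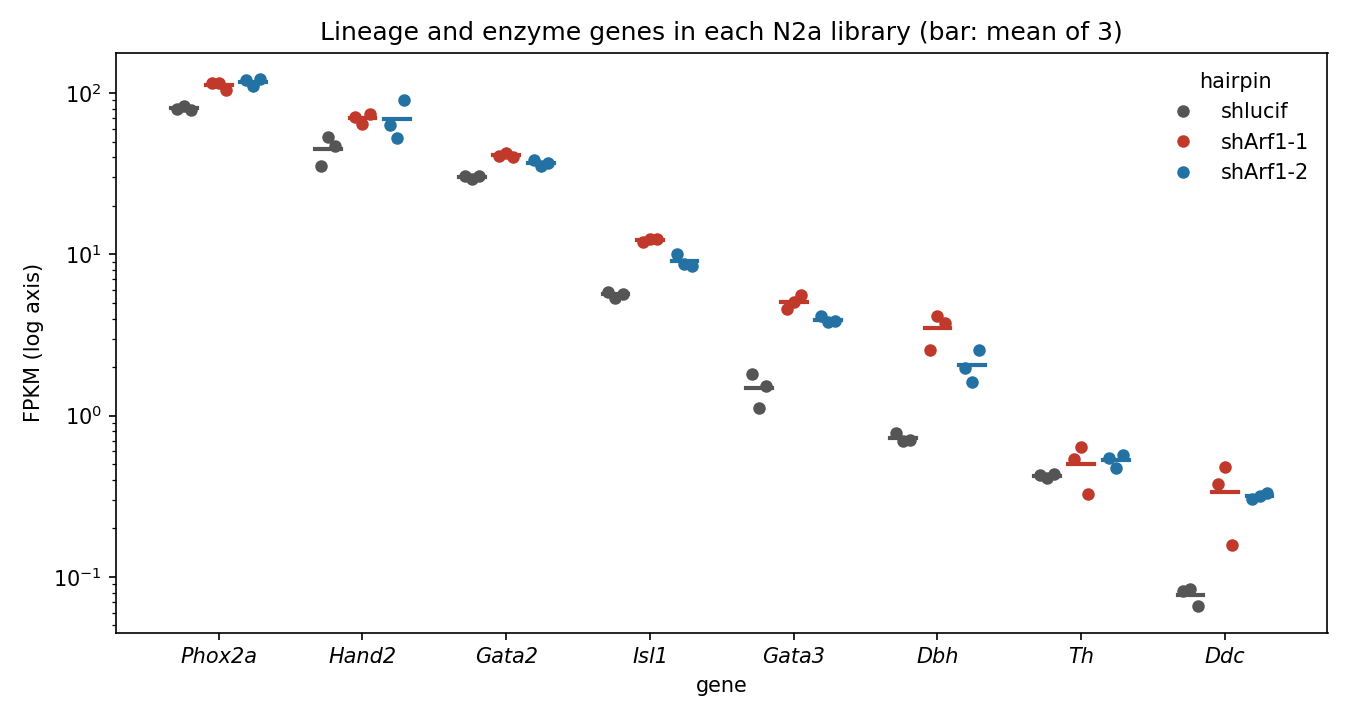
FPKM of the 8 genes (log axis) in each of the 9 libraries, 1 point per library and a bar at the mean of the 3 libraries of a hairpin, in the order of the shlucif means. The shlucif points lie below all points of both Arf1 hairpins for 6 genes, and Hand2 and Th overlap.

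Of the 8 genes, 7 were higher in Arf1-deficient cells at a Benjamini-Hochberg adjusted p under 0.05 over 12448 genes tested by the quasi-likelihood method of edgeR, against 31.6% of all tested genes that were higher. Th was the exception. The log2 fold changes ran from 0.20 to 1.98 with a median of 0.71, where the median of all tested genes was 0.003. In FPKM, the lowest Arf1-deficient library was higher than the highest shlucif library for 6 of the 8 genes, against 32.5% of all tested genes. With each hairpin on its own 6 of the 8 were higher past the threshold, the same 6 for both, where 33.1% of tested genes were higher with shArf1-1 and 30.9% with shArf1-2. These comparisons share the shlucif libraries. Because the 8 genes were chosen with earlier results known, their counts beside the shares of all genes, here and below, are descriptions only. Of the 8 genes, 7 passed the filter on low counts in every group, and Ddc passed it only through Arf1-deficient libraries (2 with shArf1-1 and 3 with shArf1-2), so it was tested because it was high there. With no filter on low counts its log2 fold change was 1.99 (adjusted p = 0.00048 in the edgeR test).

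Phox2a encodes a paired-type homeodomain factor of noradrenergic neurons. Its locus is chr7:101818313-101822726 (plus strand; loci are those of GENCODE on GRCm38). Its level was 80.2, 83.6 and 78.4 FPKM with shlucif, 116, 115 and 104 with shArf1-1, and 120, 110 and 122 with shArf1-2. The shlucif libraries lay close together and below the other 6. The means were 80.8 ± 2.63 FPKM (SD, n = 3), 112 ± 6.65 (SD, n = 3) and 117 ± 6.04 (SD, n = 3). Phox2a rose by 0.44 on the log2 scale (SE, the standard error of the fit, 0.06, adjusted p = 1.4e-06 in the edgeR test). The change was modest in size and of similar size with the hairpins, 0.41 with shArf1-1 and 0.47 with shArf1-2, and their difference of 0.06 had a 95% interval from -0.05 to 0.17. The last 95 exonic bases of the gene are shared with Inppl1 on the opposite strand, which had 1631 to 2573 counts, and the counting is not said to use strand.

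Hand2 encodes a basic helix-loop-helix factor needed for the noradrenergic phenotype. Its locus is chr8:57320983-57324633 (plus strand). Its level was 35.4, 53.3 and 47.0 FPKM with shlucif, 71.5, 64.5 and 74.5 with shArf1-1, and 63.3, 52.6 and 90.6 with shArf1-2. The groups overlapped, since 1 shArf1-2 library lay below the highest shlucif library, and the spread within shArf1-2 was wide (68.8 ± 19.6 FPKM, SD, n = 3). Each Arf1-deficient library exceeded the mean of shlucif, 45.2 ± 9.07 FPKM (SD, n = 3). Hand2 rose by 0.56 on the log2 scale in the pooled comparison (SE 0.19, adjusted p = 0.029 in the edgeR test). Neither hairpin alone passed the threshold, with log2 fold changes of 0.58 (adjusted p = 0.072) for shArf1-1 and 0.54 (adjusted p = 0.094) for shArf1-2. The pooled call was lost without any 1 of 4 libraries, with an adjusted p of 0.099 without shlucif replicate 1, 0.066 without shlucif replicate 3, 0.056 without shArf1-1 replicate 1 and 0.063 without shArf1-1 replicate 3. Over all alternatives the adjusted p ran from 0.0032 to 0.099. The gene shares 461 exonic bases with the antisense transcript Hand2os1.

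Gata2 and Gata3 encode zinc finger factors that bind the same GATA core. Gata2 is at chr6:88193891-88207032 (plus strand), and its level was 30.7, 29.3 and 30.8 FPKM with shlucif, 40.5, 42.8 and 40.4 with shArf1-1, and 38.6, 35.4 and 37.1 with shArf1-2. The 3 groups did not overlap, with shArf1-2 in the middle. Gata2 rose by 0.31 on the log2 scale (SE 0.06, adjusted p = 0.00027 in the edgeR test), by 0.39 with shArf1-1 and by 0.22 with shArf1-2.

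Gata3 is at chr2:9857078-9890034 (minus strand). Its level was 1.82, 1.11 and 1.53 FPKM with shlucif (59 to 100 counts), 4.60, 5.04 and 5.61 with shArf1-1, and 4.13, 3.81 and 3.85 with shArf1-2 (204 to 348 counts over both hairpins). No group overlapped another. Gata3 rose by 1.53 on the log2 scale (SE 0.17, adjusted p = 2.6e-07 in the edgeR test), a fold of 2.89, with 1.72 for shArf1-1 and 1.33 for shArf1-2. Its annotation shares 77 exonic bases with 9230102O04Rik on the same strand, which had 0 to 5 counts, and 155 with the antisense gene Gm13256. Relative to Gata2 the level of Gata3 was low in every group. The ratio of Gata3 to Gata2 in FPKM averaged 0.049 in control libraries (SD 0.011, n = 3), 0.123 for shArf1-1 (SD 0.014, n = 3) and 0.106 for shArf1-2 (SD 0.0021, n = 3), and it ran from 0.038 to 0.059 in the control and from 0.104 to 0.139 after knockdown. The ratio was chosen after the values of both genes were seen, so it is given without a test.

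Isl1 encodes a LIM homeodomain factor of developing sympathetic and motor neurons. Its locus is chr13:116298281-116309689 (minus strand). Its level was 5.84, 5.40 and 5.69 FPKM with shlucif, 12.0, 12.4 and 12.5 with shArf1-1, and 10.1, 8.69 and 8.51 with shArf1-2. The libraries fell into 3 bands that did not overlap, shArf1-1 being the highest. Isl1 rose by 0.86 on the log2 scale (SE 0.13, adjusted p = 3.6e-05 in the edgeR test), by 1.07 with shArf1-1 and by 0.62 with shArf1-2.

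Th encodes the rate-limiting enzyme of catecholamine synthesis and was barely expressed. Its locus is chr7:142892752-142931128 (minus strand). Its counts were 14, 13 and 14 with shlucif, 16, 17 and 12 with shArf1-1, and 19, 15 and 19 with shArf1-2, which is 0.430, 0.411 and 0.434 FPKM, 0.541, 0.643 and 0.326 FPKM, and 0.548, 0.471 and 0.568 FPKM. The groups overlapped through shArf1-1 replicate 3, which was the lowest of all 9 libraries, and the other 5 Arf1-deficient libraries exceeded the mean of shlucif. The log2 fold change was 0.20 (SE 0.32, adjusted p = 0.59 in the edgeR test), with a 95% interval from -0.42 to 0.83. At 12 to 19 counts per library the smaller changes in that interval were not detectable.

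Ddc encodes the decarboxylase that acts after Th. Its locus is chr11:11814101-11898144 (minus strand). Its counts were 5, 5 and 4 with shlucif, 21, 24 and 11 with shArf1-1, and 20, 19 and 21 with shArf1-2. In FPKM the shlucif libraries were at 0.0813, 0.0838 and 0.0658, the shArf1-1 libraries at 0.376, 0.481 and 0.158, and the shArf1-2 libraries at 0.306, 0.316 and 0.332. The groups did not overlap, and shArf1-1 replicate 3, the lowest for Th, was the lowest Arf1-deficient library here too. Ddc rose by 1.98 on the log2 scale (SE 0.43, adjusted p = 0.00049 in the edgeR test), by 2.01 with shArf1-1 and by 1.95 with shArf1-2. On the log2(FPKM + 1) scale, where the added 1 exceeds every Ddc value, the change was 0.30.

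Dbh encodes the enzyme that makes noradrenaline. Its locus is chr2:27165233-27183200 (plus strand). Its level was 0.781, 0.694 and 0.709 FPKM with shlucif (25 to 29 counts), 2.55, 4.12 and 3.76 with shArf1-1 (86 to 158 counts), and 1.98, 1.63 and 2.54 with shArf1-2 (59 to 97 counts). Every Arf1-deficient library was well above the 3 shlucif libraries, and the shArf1-1 libraries were all above the shArf1-2 libraries, the closest pair being 2.55 and 2.54 FPKM. Dbh rose by 1.85 on the log2 scale (SE 0.29, adjusted p = 2.9e-05 in the edgeR test), a fold of 3.62, with 2.20 for shArf1-1 and 1.42 for shArf1-2. On the log2(FPKM + 1) scale the change was 1.08.

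The proportions of the 3 enzymes were read within each library, since both genes of a ratio then share the scaling. The ratio of Dbh to Th in FPKM was 1.82, 1.69 and 1.63 in the shlucif libraries, 4.72, 6.41 and 11.6 with shArf1-1 and 3.61, 3.45 and 4.48 with shArf1-2. The ratio of Ddc to Th was 0.189, 0.204 and 0.151 with shlucif, 0.696, 0.748 and 0.486 with shArf1-1 and 0.558, 0.671 and 0.586 with shArf1-2. In both ratios all 6 Arf1-deficient libraries lay above the 3 controls, and the highest ratio of Dbh to Th came from the library with the fewest Th counts. These ratios were also chosen after the values were seen and have no test, and each rests on 12 to 19 counts of Th. The ratio of Ddc to Th rests as well on only 4 to 5 counts of Ddc in each shlucif library.

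**Figure D2:**
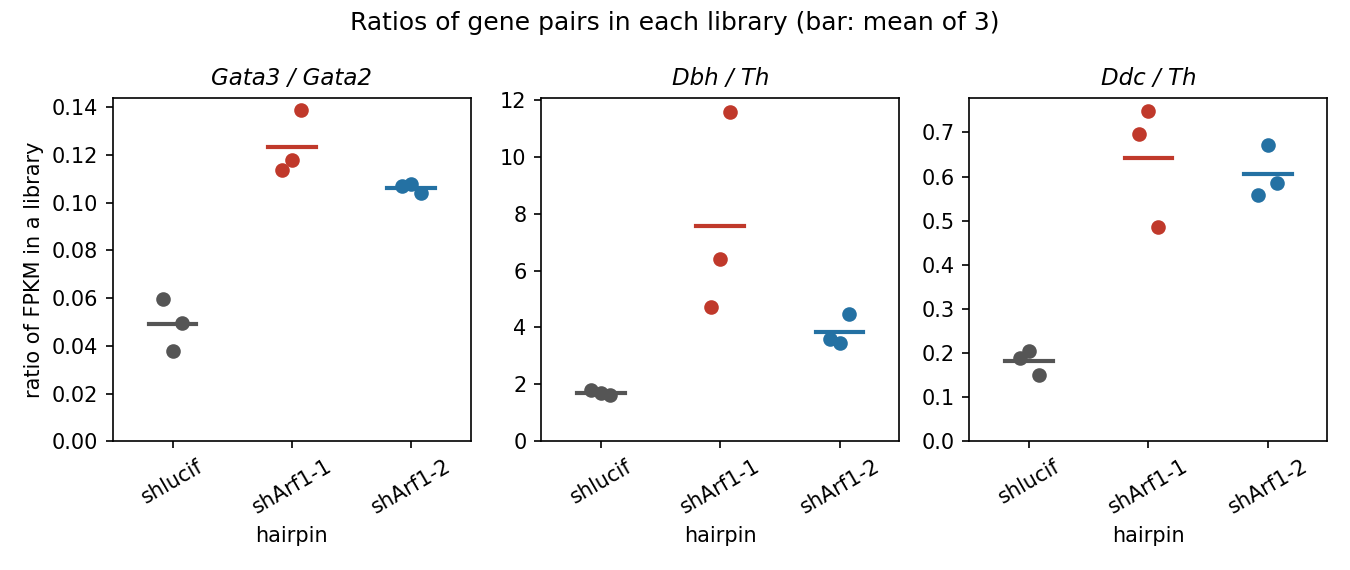
Ratios of FPKM of 3 gene pairs in each library, 1 point per library and a bar at the mean of the 3 libraries of a hairpin, with axes from 0. In each pair the 3 shlucif points lie below the 6 Arf1-deficient points, and the pairs were chosen after the values were seen.

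**Figure D3:**
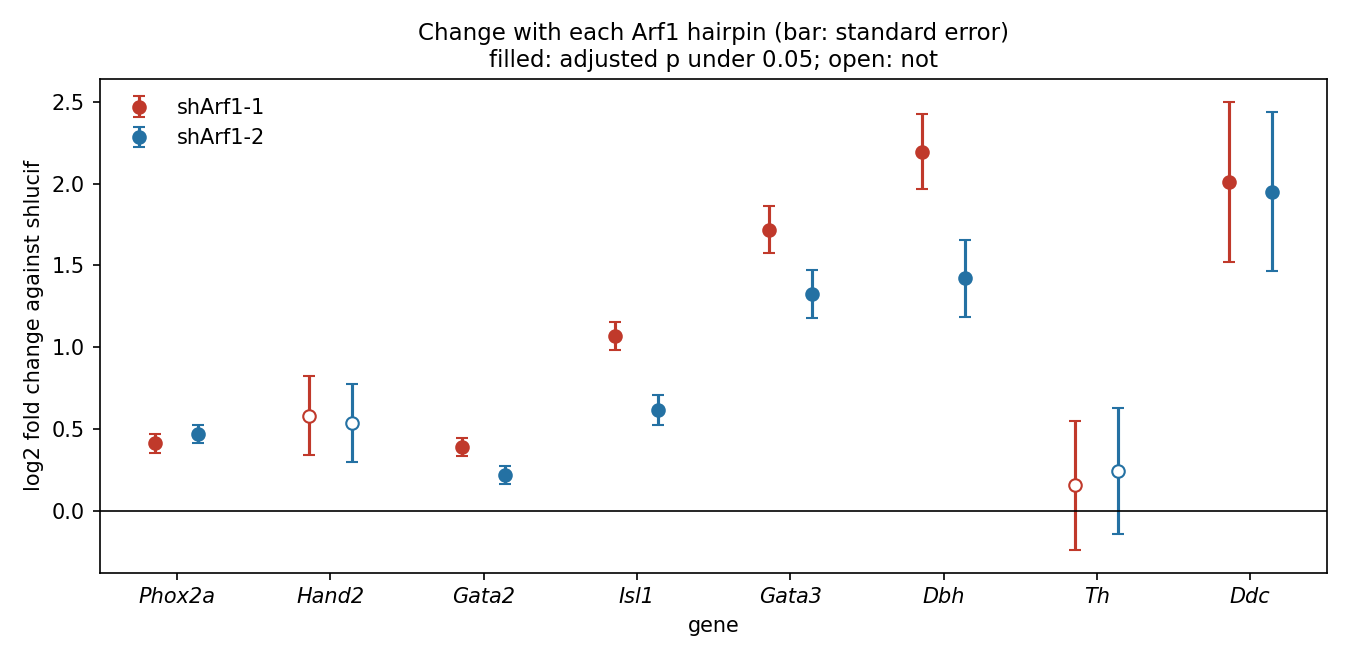
Log2 fold change against shlucif for each Arf1 hairpin, with the standard error of the edgeR fit of 3 groups. Filled points had an adjusted p under 0.05, and the open points are Hand2 and Th with both hairpins.

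The hairpins were then compared with each other, in a comparison of libraries that all had near-zero macrophage markers. Of the 8 genes, 4 were lower with shArf1-2 than with shArf1-1, against 7.46% of all tested genes that were lower and 14.4% that differed either way. A fit of these 6 libraries alone, with no shlucif library, called the same 4. Arf1 itself was higher with shArf1-2 by 0.34 on the log2 scale (SE 0.05, adjusted p = 1.2e-05 in the edgeR test). Dbh was 0.78 lower (SE 0.20, adjusted p = 0.0067), Isl1 was 0.45 lower (SE 0.08, adjusted p = 0.00022), Gata3 was 0.39 lower (SE 0.13, adjusted p = 0.033) and Gata2 was 0.17 lower (SE 0.05, adjusted p = 0.027). Isl1 alone of these 4 kept an adjusted p under 0.05 under all alternatives tried. The Dbh difference missed the threshold without shArf1-2 replicate 2 (adjusted p = 0.062).

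The Gata2 difference missed the threshold without shArf1-1 replicate 1 (adjusted p = 0.065), without shArf1-1 replicate 2 (0.080), without shArf1-2 replicate 2 (0.17) and without shArf1-2 replicate 3 (0.067). The Gata3 difference missed it without shArf1-1 replicate 3 (adjusted p = 0.17) and without shArf1-2 replicate 1 (0.055), 2 (0.12) or 3 (0.093), and DESeq2 gave 0.052. With limma on log2(FPKM + 1) and on log2(FPKM + 0.1) both differences also missed it, at 0.061 and 0.061 for Gata2 and 0.082 and 0.14 for Gata3. The count of 4 genes fell to 1 without shArf1-2 replicate 2 and to 2 without shArf1-2 replicate 3. For the other 4 genes the difference of shArf1-2 minus shArf1-1 had 95% intervals from -0.05 to 0.17 for Phox2a, -0.51 to 0.42 for Hand2, -0.66 to 0.83 for Th and -0.82 to 0.69 for Ddc. For Hand2, Th and Ddc these intervals are wide enough to hold a difference as large as that of Isl1.

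Among 28 other lineage factors, 19 could be tested, of which 13 rose and 2 fell in Arf1-deficient cells, with a median log2 fold change of 0.60. Over all tested genes 31.6% were higher and 32.9% lower. This list and the other lists were also chosen with earlier results of these data known, so their counts are descriptions only. Insm1, a zinc finger factor of neuroendocrine cells, went from between 5.57 and 5.87 FPKM with shlucif to between 15.7 and 21.5 with the Arf1 hairpins, a log2 change of 1.68 (SE 0.10, adjusted p = 8e-11 in the edgeR test). Mycn, the oncogene amplified in many human neuroblastomas, went from between 11.4 and 12.4 FPKM to between 26.3 and 29.9 with shArf1-1 and between 17.0 and 18.6 with shArf1-2 (log2 fold change 0.87, SE 0.22, adjusted p = 0.008). Among tested factors Lmo3, a LIM-only cofactor, rose most, from between 3 and 12 counts to between 34 and 67 (2.94, SE 0.39), and St18, a zinc finger factor, rose by 1.92 (SE 0.36). With as few as 3 counts in shlucif, Lmo3 could not pass the filter on low counts there. It was tested because it was high in Arf1-deficient libraries. Lmo2, a LIM-only cofactor of blood cells, went the other way, with 37 to 48 counts in control libraries and 0 to 2 after knockdown. It passed the filter on low counts only through shlucif, which fixed its direction. Hand1, with at most 13 counts, was too low to test.

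Of 23 genes that supply, store and break down catecholamines, 17 were tested, 4 were higher and 6 lower, and the median log2 fold change was -0.02. These counts are near the shares over all tested genes, 31.6% higher and 32.9% lower. Slc18a1, the vesicular monoamine transporter of chromaffin cells, rose by 1.83 (SE 0.53, adjusted p = 0.0053 in the edgeR test) but from 2 to 6 counts to 4 to 24, and it passed the filter on low counts only through Arf1-deficient libraries. Slc18a2, the vesicular transporter of neurons, had a log2 fold change of -0.11 (adjusted p = 0.78). Gch1, the first enzyme in the synthesis of the cofactor of Th, had one of -0.11 (adjusted p = 0.30). With shArf1-1 alone Gch1 was lower (-0.22, adjusted p = 0.032), and with shArf1-2 its change was -0.01 (adjusted p = 0.93). Pts and Spr, later enzymes of that synthesis, rose by 0.96 (adjusted p = 7.7e-06) and 0.43 (adjusted p = 0.00011). Gchfr, a regulator of Gch1, fell by 0.49 (adjusted p = 0.00019). Of the breakdown enzymes, Aldh2 and Maoa were lower, but Maoa passed the filter on low counts only through shlucif, which fixed its direction. Aldh2, a mitochondrial aldehyde dehydrogenase, fell by 1.54 (SE 0.07, adjusted p = 3.4e-13), and Maoa, monoamine oxidase A, had 20 to 59 counts with shlucif and 0 in every Arf1-deficient library, at least 75.3-fold lower at a floor of 3 counts over the 6 libraries. Slc6a2 had at most 2 counts, Pnmt, which makes adrenaline, at most 1, and Slc6a3, the dopamine transporter, 0 in all libraries.

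Of 35 receptor and growth factor genes of sympathetic neurons, 18 were tested, 8 were higher and 4 lower, where 31.6% of all tested genes were higher and 32.9% lower, with a median log2 fold change of 0.18. Ret, the receptor of the GDNF family, was at 122 to 131 FPKM with shlucif and 130 to 145 with the Arf1 hairpins, a log2 change of 0.05 (adjusted p = 0.42 in the edgeR test). Alk, a receptor kinase mutated in some neuroblastomas, had one of -0.02 (adjusted p = 0.82). The low-affinity neurotrophin receptor Ngfr rose by 0.79 (SE 0.08, adjusted p = 7.6e-08), from 50.2 to 61.5 FPKM with shlucif to 86.1 to 107 in Arf1-deficient cells. The largest changes past the threshold were those of Gfra2, a co-receptor of Ret (1.43, from 5 to 8 counts to 10 to 30, tested only through its Arf1-deficient libraries), Adcyap1r1, the receptor of PACAP (1.17), and Smad9, which carries BMP signals (1.13). Gfra1, a co-receptor of Ret with 281 to 320 counts in shlucif, fell by 0.34 (SE 0.10, adjusted p = 0.0064). With shArf1-2 alone its change of -0.22 missed the threshold (adjusted p = 0.055).

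Genes of other transmitters were present as well. Of 14 cholinergic and serotonergic genes, 7 were tested, 4 were higher and 2 lower, against the same 31.6% and 32.9%, with a median log2 fold change of 0.64. Tph1 and Tph2, the tryptophan hydroxylases of serotonin synthesis, rose by 1.39 (SE 0.14) and 0.64 (SE 0.16), and Tph2 lay between 2.85 and 3.21 FPKM in shlucif cells, above Th and Dbh. Of the other serotonergic markers, Fev had a log2 fold change of -0.12 (adjusted p = 0.65), and Slc6a4 had at most 11 counts. Ache, acetylcholinesterase, rose by 1.08 (SE 0.08), and Lif, a cytokine that turns sympathetic neurons cholinergic, fell by 1.57 (SE 0.26). The core cholinergic genes Chat, Slc18a3 and Slc5a7 had at most 9, 1 and 2 counts in any library.

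The mesenchymal and glial crest genes moved opposite to the lineage factors. Of 25 genes, 10 were tested and 9 were lower, against 32.9% of all tested genes, with a median log2 fold change of -1.22. Wwtr1, a coactivator of the Hippo pathway, fell by 2.22 (SE 0.13) and Notch2, a Notch receptor, by 1.88 (SE 0.08), and Runx1, a factor of blood and of sensory neurons, had 33 to 48 counts with shlucif and 0 to 3 in Arf1-deficient libraries. The other 15 were too low to test, among them the defining crest markers Sox10, Foxd3, Twist1 and Prrx1 at 0 counts in all libraries. Other crest genes were expressed in every group and fell: Vim, an intermediate filament gene, from between 569 and 606 FPKM with shlucif to between 282 and 327 with the Arf1 hairpins, Sox9 from between 9.03 and 10.5 to between 4.62 and 6.24, and Erbb3 from between 7.66 and 7.83 to between 4.32 and 6.62. Runx1 passed the filter on low counts only through shlucif. Macrophages also express Runx1, Notch2 and Lmo2, and the summed macrophage markers given above fell along with them, and their part in these results was not tested. Of 14 neuronal markers 11 were tested, 8 were higher and 1 lower, against 31.6% and 32.9% of all tested genes, with a median of 0.35, and among those named Tubb3 rose by 0.70, Syt1 by 0.53, and Map2 fell by 0.50. Dcx, 1 of the 8 that were higher, passed the filter on low counts only through Arf1-deficient libraries, which fixed its direction.

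**Figure D4:**
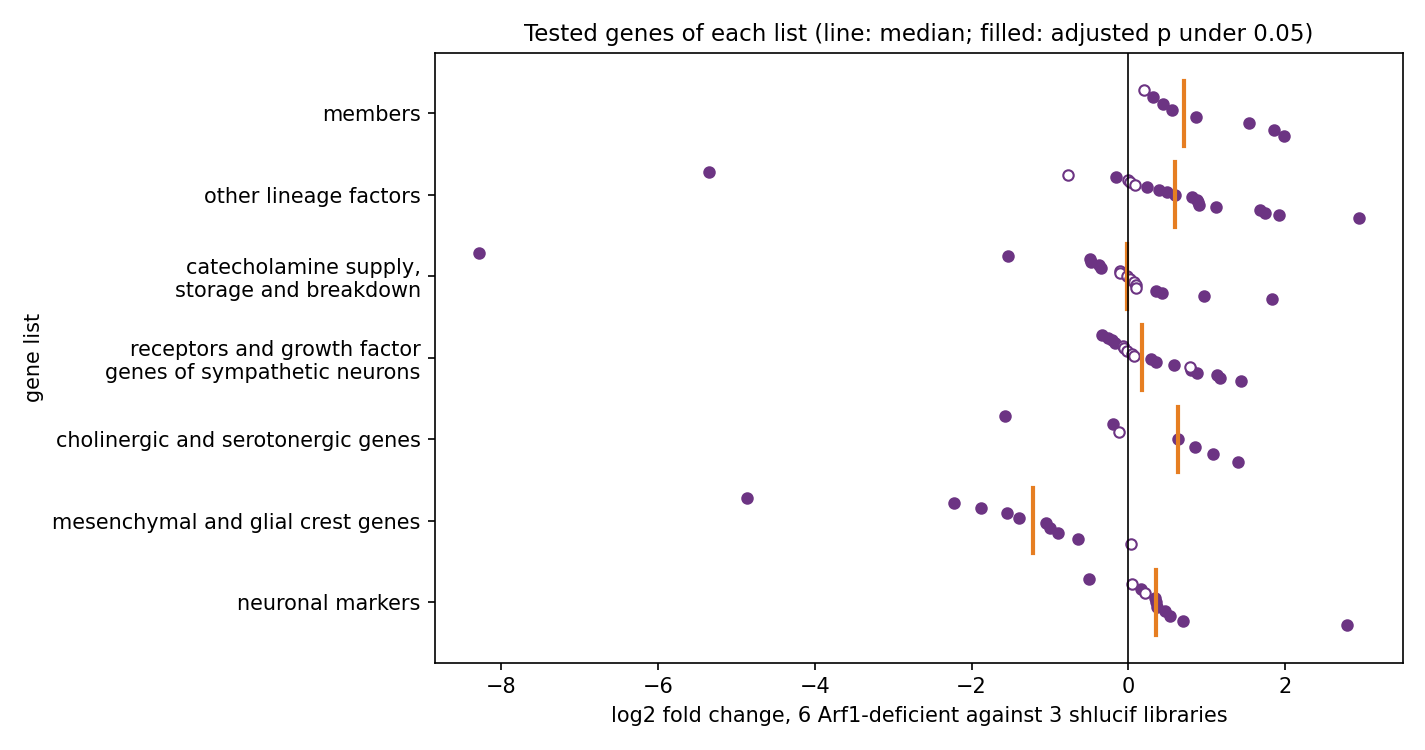
Log2 fold change of every tested gene of 7 lists in the comparison of 6 Arf1-deficient with 3 shlucif libraries, filled where the adjusted p was under 0.05, with a line at the list's median; members are the 8 lineage genes. The macrophage list is left out, and the points of Maoa near -8 and of Lmo2 and Runx1 near -5 rest on counts of 0 to 3 in Arf1-deficient libraries, so that their place depends on the fit's prior count.

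The genes most like each member over the 9 libraries were sought by Pearson's r of log2 CPM among 10236 or 10237 genes, as a description with no test, since the 9 libraries form 3 groups and a gene that separates the groups in the same order has a high r. For Gata3, 601 genes had an r above 0.95, led by Ctr9 (0.992) and Ykt6 (0.991). For Isl1 there were 338, led by Kdelr2 (0.996) and Zfp672 (0.994), and for Dbh 303, led by Ints13 (0.994) and Ak6 (0.991). Phox2a had 219 such genes, led by Mapk14 (0.990) and Adm2 (0.988), and Gata2 had 161, led by Itpa (0.991) and Timm50 (0.989). The genes with overlapping groups or few counts had few such partners. Ddc had 37, led by Zfp358 (0.984) and Slc27a3 (0.978), Hand2 had 6, led by Mtx2 (0.989) and Dynll2 (0.975), and Th had 1, Poll (0.956), followed by Hspbp1 (0.913).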

How the data were processed

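RNA of 9 N2a libraries was sequenced from oligo(dT)-selected, fragmented, randomly primed mRNA. The authors deposited unnormalized read counts and FPKM values for 21899 genes, with mm10 as the build in the submitters' processing notes. The deposited FPKM equals the count divided by listed length and library total. The aligner, counting tool and strand setting are not given in the sources used here. Another 8 lines that name no gene were left out.

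Counts were analysed with edgeR 4.0.16 in R 4.3.3 (filterByExpr with min.count 10, TMM, robust glmQLFit, glmQLFTest), checked on simulated counts. Arf1-deficient libraries were compared with shlucif, and a fit of 3 groups gave each hairpin and their difference. Calls were made at 0.05 after Benjamini-Hochberg adjustment over all tested genes. Intervals are 1.96 standard errors either way. Coordinates are GENCODE M21 on GRCm38 by identifier. Other coordinates of the table were not used.

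The 8 genes and the lists were chosen with earlier results of these data known. Named besides them were 18 genes whatever their change and, of each list, the 3 genes past the threshold with the largest change and at least 1 CPM in the higher group. Genes most like a member were the 2 with the highest r among genes of at least 5 CPM. A few list genes are counted but not reported singly. Crest markers other than the largest changes, and Lyz2, Pts, Spr, Gchfr, Gfra1, Fev, Slc6a4 and Dcx, were named after their values were seen. Alternatives were DESeq2 1.42.0, other scalings and filters, limma 3.58.1 on log2 FPKM, a replicate block, other models and leaving out each library. Same-group libraries differed by more than sampling noise.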

Additional observations from a re-analysis of the deposited data

Results flagged for a closer look

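The changes of 12 named genes differed between the hairpins by the test of the difference itself, an edgeR contrast of shArf1-2 minus shArf1-1 with an adjusted p under 0.05, where shArf1-1 left less Arf1 RNA. Among the 8 lineage genes, the change with shArf1-2 was smaller for Gata2 (-0.17 on the log2 scale), Gata3 (-0.39), Isl1 (-0.45) and Dbh (-0.78). Among the other lineage factors it was smaller for Mycn (-0.67), Insm1 (-0.25) and St18 (-0.98). It was also smaller for the tryptophan hydroxylase genes Tph1 (-0.33) and Tph2 (-0.42) and for Smad9 (-0.29). For Wwtr1 (0.47) and Notch2 (0.24), which fell with both hairpins, the fall was smaller with shArf1-2. The direction belongs to these named genes only, and over all tested genes 1798 of 12448 differed between the hairpins. List genes outside the naming rule, picked after their values were seen, went the other way: the change with shArf1-2 was larger for Meis2, a homeodomain factor (0.42, adjusted p = 0.012), and for Snap25, a synaptic gene (0.40, adjusted p = 9.3e-06). The cause was not tested.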

How the results depend on the processing

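The direction and side of the threshold of Phox2a, Gata2, Gata3, Isl1, Ddc and Dbh against shlucif, pooled and per hairpin, held under every alternative that tested them, and requiring 10 counts in every library removed Ddc. Hand2 kept its direction against shlucif with 0.42 to 0.68 pooled, and averaging the hairpin contrasts left it at an adjusted p of 0.053. Hand2 passed with shArf1-1 alone under 6 alternatives and with shArf1-2 alone under 4. The number of members lower with shArf1-2 was 2 with limma on log2(FPKM + 1) and 2 on log2(FPKM + 0.1), and 1 to 4 with a library left out. The list counts of lower genes became 1 for other lineage factors (library size scaling, 10 counts in every library, both limma fits), 1 for receptors (library size scaling, both limma fits), 1 for cholinergic and serotonergic genes (the same 3) and 0 for macrophage markers (10 counts in every library, where none were tested), and 1 mesenchymal gene was higher with no filter. With a library left out these counts ran from 1 to 3, 2 to 4 and 1 to 2 for the first 3 lists: other lineage factors 1 without shlucif replicate 2, receptors 2 without shlucif replicate 1 or 3, cholinergic and serotonergic genes 1 without shlucif replicate 1. Estimates that missed the threshold changed sign: Th with shArf1-1 (-0.059 to 0.42 with a library left out), and the hairpin differences of Hand2 (-0.30 to 0.12), Th (-0.18 to 0.30) and Ddc (-0.44 to 0.28, and 0.011 with limma on log2(FPKM + 0.1)). The causes were not tested beyond fewer genes or libraries.

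Deviations of same-numbered libraries correlated between -0.082 and 0.094 over 9 pairs, so no shared effect of the number was seen. Some pairs of unlike numbers lay further from 0, at -0.19 and 0.19. With 3 libraries per group the check cannot show that same-numbered libraries had no common batch or culture. With the replicate block 7 members passed pooled, 6 with each hairpin and 4 between hairpins, and no call of the 8 genes changed. Depth limits Th and Ddc most, at 4 to 24 counts.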
